A study of Gallus gallus with 5 samples.

Results

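The endoplasmic reticulum (ER) chaperones HSPA5, HSP90B1 and SERPINH1 and the stress kinase EIF2AK3 were followed across 5 RNA-seq libraries of the chicken (Gallus gallus) blastoderm, the embryonic disc of a laid egg. These 4 genes, of 10102 with a symbol, were chosen by their FPKM in these same libraries, HSPA5, HSP90B1 and EIF2AK3 on the values after storage at 16 °C and SERPINH1 on those after incubation, each against unstored. The values below therefore describe the genes and test nothing. The conditions were no storage, incubation at 37 °C lasting 4 h, and storage lasting 7 days at a temperature of 4, 16 or 24 °C. The labels give no strain, sex, stage or number of pooled embryos for any of the groups. With 1 library per condition there is no spread between replicates, so no p-value or error is given, and which neighbouring levels differ beyond their spread cannot be said.

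The ER is where secreted and membrane proteins fold. HSPA5 (BiP) is the HSP70 chaperone of its lumen and HSP90B1 (GRP94) the HSP90 chaperone. EIF2AK3 (PERK) is a kinase in the ER membrane that senses unfolded proteins, is held inactive by HSPA5 in the textbook model, and phosphorylates the translation factor eIF2 when released. SERPINH1 (HSP47) binds procollagen in the ER and is known in vertebrates as a gene of the heat shock response, whereas HSPA5 and HSP90B1 are standard targets of the unfolded protein response.

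Values are FPKM, fragments scaled to transcript length and to the mapped fragments of the library, as deposited. The depth behind them is unknown. Each of the 4 genes was represented by 1 row: NM_205491 for HSPA5, NM_204289 for HSP90B1, the predicted transcript XM_420868 for EIF2AK3 and NM_205291 for SERPINH1. FPKM summed to between 333528 and 389061 per library, and between 6928 and 7220 genes reached FPKM 1. The tissue label was checked with 11 epiblast genes, of which 9 passed FPKM 1 in at least 1 library, among them NANOG and EPCAM, and none of the 10 in the files was listed at 0. Their summed FPKM was 2101 in the unstored library, 1682 after incubation, and 2174, 1133 and 1033 after storage at 4, 16 and 24 °C. Of 19 genes of blood, egg white, muscle and nerve, 14 were in the files and 5 passed. The 14 had summed FPKM of 10.6 unstored, 13.3 after incubation, and 14.5, 17.4 and 32.2 at 4, 16 and 24 °C. The globin gene HBBA was at 0 in 4 of the 5 libraries, and the ovalbumin gene OVAL at 0 at 4 and 16 °C. The globin gene HBA1 was at 0 unstored and after incubation, HBZ after incubation and at 4 °C, and HBAD in no library. None of these globin genes passed FPKM 1. Genes of this list at 0 numbered 4 unstored, 4 after incubation, and 3, 2 and 1 at 4, 16 and 24 °C. Among the 5 that passed, the egg white genes AVD and TF were higher at 16 °C than unstored, AVD by at least 2-fold. On the log2 scale defined below, TF was 0.95 and the nerve gene NEFL was lower, at -0.62. The median of the 5 was 0.90. The part of these marker differences in the levels below was not tested. In bulk tissue, fewer cells of a type and less RNA per cell cannot be told apart.

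HSPA5 stood out in the library stored at 16 °C. Its FPKM was 187 unstored, 204 after incubation, 203 at 4 °C, 1334 at 16 °C and 321 at 24 °C. The 16 °C value was 7.12 times the unstored one, and the unstored, incubated and 4 °C libraries lay between 187 and 204. HSPA5 ranked 222 in level among the 10102 genes of the unstored library, 172 after incubation, 219 at 4 °C, 5 at 16 °C and 89 at 24 °C. Its share of all FPKM was 0.0512% unstored and 0.399% at 16 °C.

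HSP90B1 had its highest value in the same library, over a smaller range. Its FPKM was 159 unstored, 244 after incubation, 163 at 4 °C, 420 at 16 °C and 226 at 24 °C. The unstored and 4 °C libraries were lowest and nearly equal, the incubated and 24 °C libraries were intermediate, and the 16 °C value was 2.64 times the unstored one.

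EIF2AK3 was far less abundant and varied more. Its FPKM was 5.73 unstored, 1.32 after incubation, 3.69 at 4 °C, 26.0 at 16 °C and 10.5 at 24 °C. The order from low to high was incubated, 4 °C, unstored, 24 °C and 16 °C, and the highest value was 19.7 times the lowest.

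Relative to unstored, SERPINH1 ran the other way at 16 and 24 °C. Its FPKM was 27.6 unstored, 114 after incubation, 47.0 at 4 °C, 6.27 at 16 °C and 9.49 at 24 °C. It was highest after incubation, where the unfolded protein sensor EIF2AK3 was lowest, and lowest at 16 °C, where the other 3 genes were highest. The incubated value was 18.2 times that at 16 °C.

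**Figure D1:**
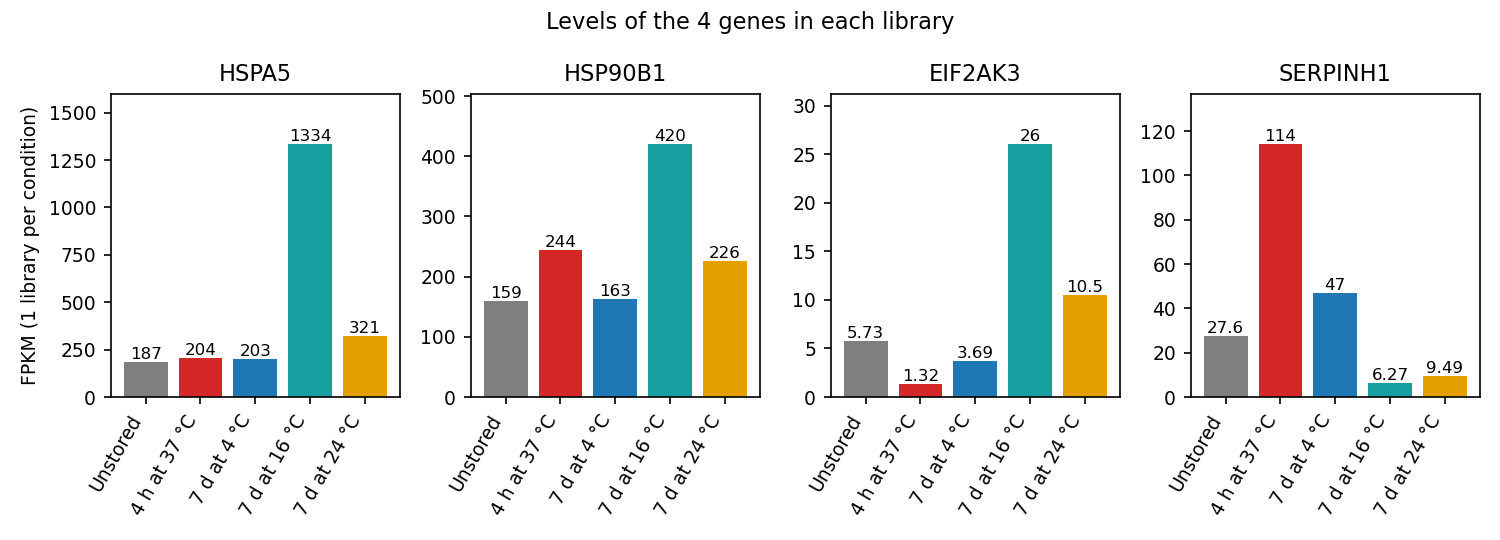
FPKM (vertical axes, each starting at 0 with its own scale) of HSPA5, HSP90B1, EIF2AK3 and SERPINH1 in the 5 libraries, 1 bar per library. HSPA5 reaches 1334, HSP90B1 420 and EIF2AK3 26.0 at 16 °C, while SERPINH1 is lowest there at 6.27 and highest after incubation at 114.

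Differences between libraries are given as log2 ratios of FPKM + 1, which understates the change of low genes such as EIF2AK3. A gene was called at least 2-fold different when the log2 ratio reached 1 in either direction with FPKM above 0 in both libraries. Over all genes that reached FPKM 1 in at least 1 library, the median log2 ratio to unstored was 0.12 for incubation, 0.10 at 4 °C, -0.04 at 16 °C and 0.04 at 24 °C.

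The contrast of 16 °C with unstored was that behind the choice of HSPA5, HSP90B1 and EIF2AK3. In it these 3 were at least 2-fold higher, against 7.65% of 7689 genes, and SERPINH1 was lower, against 8.75%. The log2 ratio was 2.83 for HSPA5, 1.39 for HSP90B1, 2.01 for EIF2AK3 and -1.97 for SERPINH1. HSPA5 was the 9th highest and EIF2AK3 the 36th highest of all genes, HSP90B1 the 186th, and SERPINH1 the 34th lowest. All 4 lay outside the middle 90% of genes, which reached from -1.21 to 1.16.

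At 24 °C against unstored none of the 4 was at least 2-fold higher, where 10.5% of 7690 genes were, and SERPINH1 was lower (-1.44), where 8.35% were. HSPA5 (0.77), EIF2AK3 (0.78) and HSP90B1 (0.50) were positive but inside the middle 90% of genes, between -1.22 and 1.35. All comparisons with unstored share that library, so their ratios are not independent.

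At 4 °C against unstored none of the 4 reached 2-fold, where 0.637% of 7697 genes were higher and 0.0909% lower. HSPA5 (0.11) and HSP90B1 (0.03) lay near the median of all genes, and with median-ratio scaling between libraries both values turned slightly negative (-0.01 and -0.10). EIF2AK3 (-0.52) lay below the middle 90% of genes, -0.32 to 0.55, and SERPINH1 (0.75) above it.

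After incubation, the contrast behind the choice of SERPINH1, that gene was at least 2-fold higher (2.01) than unstored, where 8.48% of 7700 genes were. EIF2AK3 was lower (-1.54), where 2.53% were. HSP90B1 was 0.61 and HSPA5 0.12, the latter at the median of all genes and -0.02 with median-ratio scaling. The EIF2AK3 value rests on FPKM of 5.73 and 1.32, and with a pseudocount of 5 it was -0.76, short of 2-fold.

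**Figure D2:**
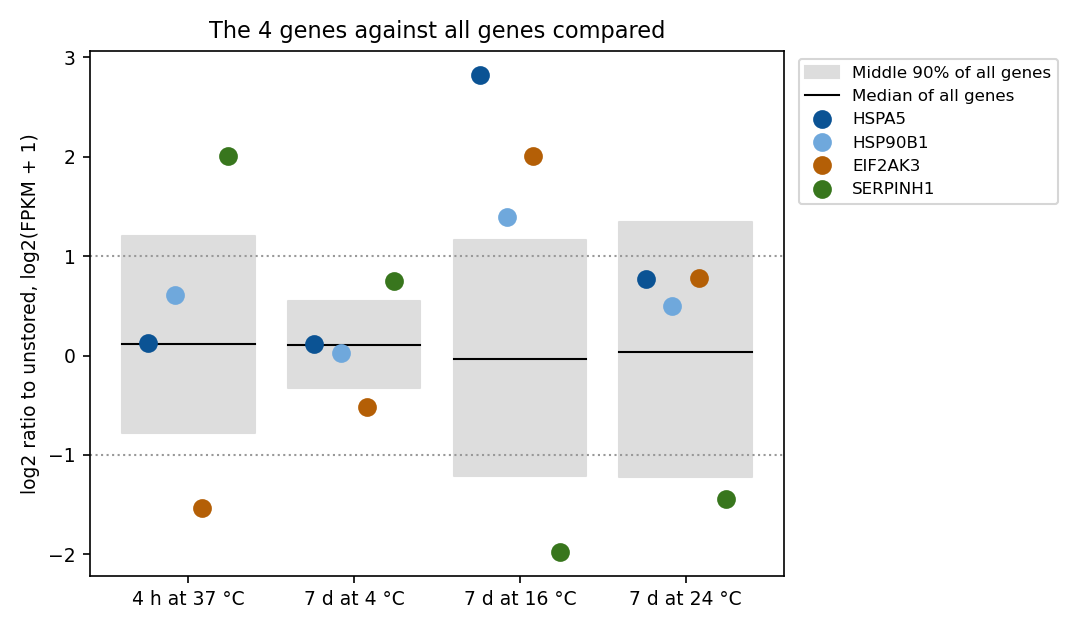
Log2 ratio to unstored, on the log2(FPKM + 1) scale, of the 4 genes (points) in the 4 other libraries, with the middle 90% of all genes compared (grey) and their median (black line); dotted lines mark 2-fold. At 16 °C the genes spread from -1.97 (SERPINH1) to 2.83 (HSPA5), while at 4 °C they lie between -0.52 and 0.75.

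The storage temperatures were also compared with each other. HSPA5, HSP90B1 and EIF2AK3 were chosen on their 16 °C values, so for them the pairs with that library reuse the choice. At 16 °C against 4 °C, HSPA5 (2.71), EIF2AK3 (2.53) and HSP90B1 (1.36) were at least 2-fold higher, where 7.27% of genes were, and SERPINH1 (-2.72) was lower, where 13.0% were. The median of all genes was -0.15 in this pair. From 16 to 24 °C, HSPA5 (-2.05) and EIF2AK3 (-1.23) were at least 2-fold lower, where 1.23% of genes were. HSP90B1 was -0.89 and SERPINH1 0.53 in this pair. HSPA5 was the 12th lowest of 7693 genes there. With a pseudocount of 5 the EIF2AK3 ratio of 24 to 16 °C lay just short of 2-fold. At 24 °C against 4 °C, EIF2AK3 (1.30) was higher, where 9.52% of genes were, and SERPINH1 (-2.19) lower, where 11.7% were, with HSPA5 at 0.66 and HSP90B1 at 0.47. With a pseudocount of 5 the EIF2AK3 value there was 0.84.

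Against the incubated library, EIF2AK3 was at least 2-fold higher at all 3 storage temperatures and SERPINH1 at least 2-fold lower. SERPINH1 was chosen on its incubated value and the other genes on their 16 °C values. The ratios and ranks that use those libraries therefore reuse the choice. The EIF2AK3 log2 ratios were 1.02 at 4 °C, 3.54 at 16 °C and 2.31 at 24 °C, where 2.84%, 5.44% and 5.40% of genes were higher. These EIF2AK3 ratios rest on an incubated FPKM of 1.32. With a pseudocount of 5 they were 0.46, 2.3 and 1.3, the first short of 2-fold, and with 0.1 they were 1.42, 4.2 and 2.9. The SERPINH1 ratios were -1.26, -3.99 and -3.46, where 4.73%, 14.3% and 10.2% of genes were lower. SERPINH1 was the 2nd lowest of 7697 genes at 16 °C and the 3rd lowest of 7702 at 24 °C, and EIF2AK3 the 4th and the 5th highest. HSPA5 was at least 2-fold higher at 16 °C only (2.70), and HSP90B1 (0.78 there) in none of the stored libraries.

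Ratios of genes within a library do not depend on scaling between libraries. HSPA5 was 1.18 times as abundant as HSP90B1 in the unstored library, 0.835 times after incubation, 1.25 times at 4 °C, 3.17 times at 16 °C and 1.42 times at 24 °C. The levels of these chaperones were thus similar per transcript length except at 16 °C, where HSPA5 exceeded HSP90B1. HSPA5 was 6.80 times as abundant as SERPINH1 when unstored, 1.79 times after incubation and 213 times at 16 °C.

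HSPA8 and HSP90AA1, abundant cytosolic relatives of HSPA5 and HSP90B1, were lower than unstored at 16 °C. HSPA8, the constitutive cytosolic HSP70, had FPKM 2455 unstored, 4200 after incubation, 3051 at 4 °C, 949 at 16 °C and 1085 at 24 °C. It exceeded HSPA5 13.1 times in the unstored library and 3.38 times at 24 °C, and at 16 °C HSPA5 was 1.41 times HSPA8. HSP90AA1, a cytosolic HSP90, had FPKM 2980 unstored, 4182 after incubation, 3672 at 4 °C, 639 at 16 °C and 985 at 24 °C. It exceeded HSP90B1 18.7 times in the unstored library and 1.52 times at 16 °C. The mitochondrial relatives HSPA9 (-0.05) and TRAP1 (-0.14) were near 0 at 16 °C, whereas the mitochondrial chaperonin HSPD1 was lower (-1.65). HSPA8, HSPA9 and TRAP1 were named outside the naming rule given below, with earlier results of these data known.

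**Figure D3:**
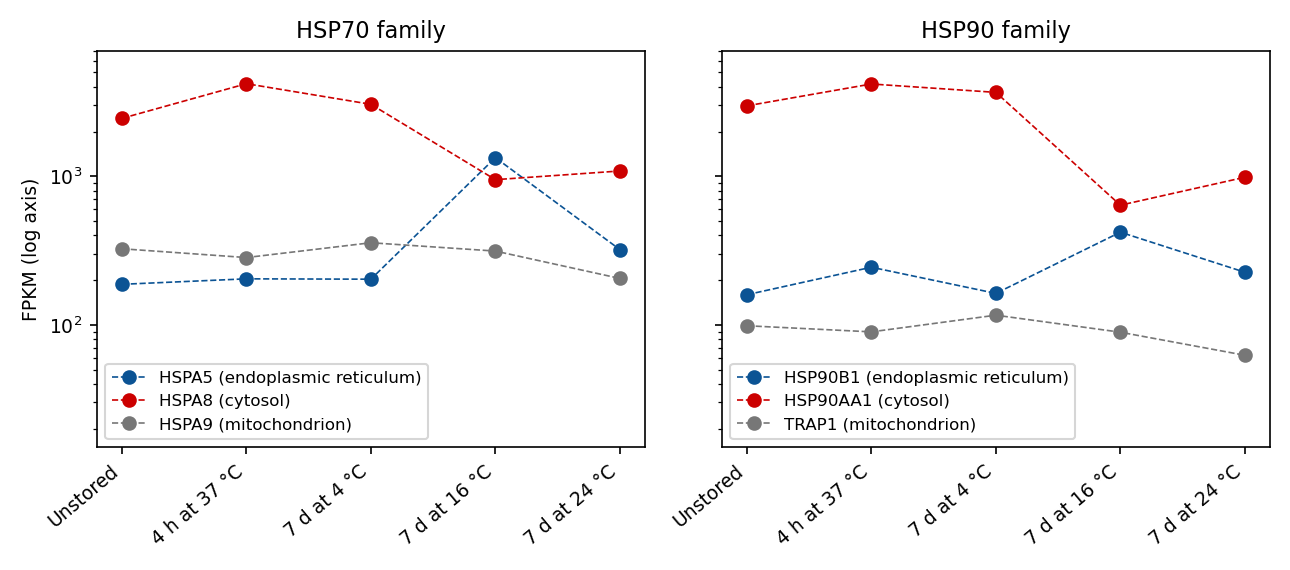
FPKM (log axis) of HSP70 family members (left) and HSP90 family members (right) of the ER, the cytosol and the mitochondrion in the 5 libraries; dashed lines only join the points of a gene. HSPA5 (1334) lies above HSPA8 (949) at 16 °C and below it in the other 4 libraries, and HSP90B1 stays below HSP90AA1 in all 5.

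SERPINH1 had, as did HSPA8 and HSP90AA1, its highest value after incubation and its lowest at 16 °C. A list of HSP70 and HSP90 relatives, other heat shock and J-domain proteins had 16 measured genes, among them the heat shock transcription factor HSF2 and HSPA13, a microsomal HSP70. After storage at 16 °C 5 of the 16 were at least 2-fold lower and 1 higher, beside 8.75% and 7.65% of all genes, with a median of -0.47. At 24 °C 6 were lower and none higher, beside 8.35% and 10.5%, with a median of -0.66. The lowest was HSPH1, a nucleotide exchange factor of HSP70 (-2.89), and the higher gene was the small heat shock protein HSPB9 (1.77). After incubation 1 of the 16 was at least 2-fold higher and none lower, beside 8.48% and 2.53% of all genes, with a median of 0.16.

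None of the measured partners of HSPA5 and HSP90B1 in the ER lumen was as much higher than unstored at 16 °C as these genes. The choice of HSPA5 and HSP90B1 on this contrast favours that outcome. Of 20 listed genes of this chaperone system, 12 were in the files. Of the 10 besides HSPA5 and HSP90B1, none was at least 2-fold higher at 16 °C and 1 was lower. Beside this stand 7.65% and 8.75% of all genes, and the median of the 10 was -0.08. The lower gene was DNAJC10, a J-domain protein that reduces disulfides, with FPKM 43.7 unstored and 15.2 at 16 °C (-1.46). The other J-domain proteins ranged from -0.66 for DNAJC25 through 0.05 for DNAJB9, 0.25 for DNAJB11 and 0.45 for DNAJC3 to 0.74 for SEC63. SEC63, which recruits HSPA5 to the import channel, had the highest value of the 10, from FPKM 46.6 to 78.7, and was 0.81 at 24 °C. SDF2L1, a partner of DNAJB11, was 0.37 at 16 °C. SIL1, an exchange factor of HSPA5, was -0.22, SDF2 was -0.61, and MESDC2, a chaperone of lipoprotein receptors, was -0.85. HYOU1 and MANF were not analysed here.

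Oxidative folding enzymes stand beside these chaperones in the ER lumen. P4HB, the protein disulfide isomerase, had FPKM 603 unstored, 811 after incubation, 636 at 4 °C, 1130 at 16 °C and 1092 at 24 °C. P4HB was 3.22 times HSPA5 in the unstored library and 0.847 times at 16 °C. PDIA3, the isomerase of the calnexin cycle, had FPKM 195 unstored, 332 at 16 °C (0.76) and 359 at 24 °C (0.88), so both isomerases were higher than unstored by less than 2-fold. The ER oxidases ERO1B (1.02 and 1.41) and ERO1A (0.93 and 1.66) were higher at 24 than at 16 °C, unlike HSPA5. Of 15 genes of disulfide formation, 1 was at least 2-fold higher at 16 °C and none lower, beside 7.65% and 8.75% of all genes. Their median was 0.18. Among 6 lectin and glycan check genes none reached 2-fold either way at 16 °C, beside the same shares of all genes. Their median was 0.27, and UGGT2, a glycoprotein folding sensor, was lowest at -0.77. UGGT1 was -0.43 and the cargo receptor subunit MCFD2 0.57.

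EIF2AK3 was compared with the 3 other kinases that phosphorylate eIF2. EIF2AK1, the haem-regulated kinase, had FPKM between 18.7 and 22.7 in the 5 libraries. It was 3.91 times EIF2AK3 in the unstored library, 14.1 times after incubation, 5.62 times at 4 °C and 2.08 times at 24 °C, and at 16 °C EIF2AK3 was the more abundant (26.0 against 22.7). EIF2AK2, which senses double-stranded RNA, went from FPKM 1.93 to 5.39 at 16 °C (1.12). EIF2AK4, which senses amino acid shortage, was 3.01 unstored and 3.22 at 16 °C (0.07). At 16 °C alone, on whose values EIF2AK3 was chosen, it had the highest level of the 4 kinases.

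**Figure D4:**
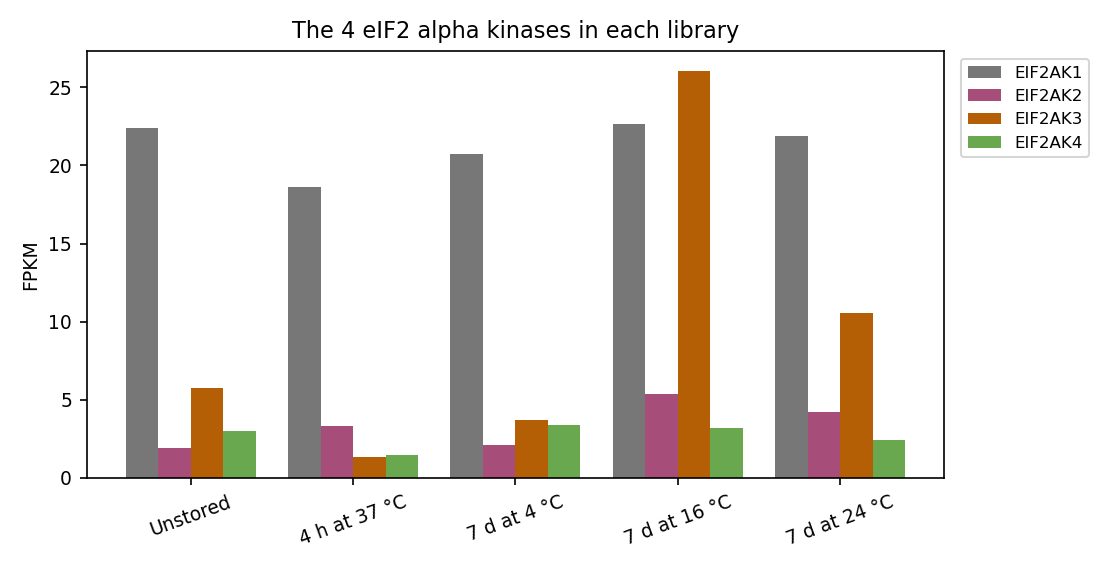
FPKM of the 4 eIF2 alpha kinases in the 5 libraries, 1 bar per gene and library. EIF2AK3 ranges from 1.32 after incubation to 26.0 at 16 °C, while EIF2AK1 stays between 18.7 and 22.7.

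The substrate of the kinase and the genes downstream of it were examined next. Of 17 other genes of the kinases, eIF2, its exchange factor and its phosphatase, 1 was at least 2-fold higher at 16 °C (EIF2AK2) and none lower. Of all genes 7.65% were higher and 8.75% lower, and the median of the 17 was 0.02. EIF2S1, the phosphorylated subunit, went from FPKM 155 to 112 (-0.47), and PPP1R15B, which directs the phosphatase to eIF2, was 0.38 at 16 °C and -0.59 at 24 °C. Of 38 listed genes of the integrated stress response, 20 were measured. Among the 20, 1 was higher and 2 were lower at 16 °C, beside the same shares of all genes, with a median of -0.32. PSAT1, an enzyme of serine synthesis, was the higher one (1.35), and the mitochondrial folate enzyme MTHFD2 (-1.22) and the amino acid transporter SLC7A5 (FPKM 84.4 to 41.6) were the lower ones. VEGFA, an angiogenic factor, was 0.94. ATF4, the transcription factor whose translation rises when eIF2 is phosphorylated, had FPKM 78.6 unstored, 102 after incubation, 87.3 at 4 °C, 61.0 at 16 °C and 37.5 at 24 °C, and was named after its values were seen. DDIT3, TRIB3 and PPP1R15A were not analysed here.

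In the other sensor branches, XBP1, the transcription factor spliced by IRE1, had its highest value at 16 °C. Its FPKM was 38.4 unstored, 47.9 after incubation, 39.6 at 4 °C, 72.2 at 16 °C and 45.9 at 24 °C. The 5 libraries ranked in the same order for XBP1 as for HSP90B1, and its log2 ratio at 16 °C was 0.89. ATF6B, a sensor cut in the Golgi, was 0.88 at 16 °C and 0.47 at 24 °C. MBTPS2, one of the proteases that cut it, had FPKM 2.08 unstored, 4.97 at 16 °C (0.95) and 8.20 at 24 °C (1.58). Of the 13 measured genes of these branches, 1 was at least 2-fold higher at 16 °C and none lower, beside 7.65% and 8.75% of all genes. The median was 0.36, and the higher gene was the apoptosis effector BAK1 (1.28). FPKM do not show the splicing of XBP1. ERN1 and ATF6 were not analysed here.

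SERPINH1 was set beside its clients and the enzymes that modify them. After incubation, where SERPINH1 was highest, 7 of 16 measured collagen genes were at least 2-fold higher than unstored and 1 was lower, beside 8.48% and 2.53% of all genes, with a median of 0.80. The lower gene was COL3A1 (-1.14), and COL9A2 was -0.52, COL3A1 being named after its value was seen. COL1A2, a chain of type I collagen named after its values were seen, went from FPKM 4.79 to 23.2 (2.07), and COL4A6, a chain of basement membrane collagen, from 10.1 to 30.2. At 16 °C, where SERPINH1 was lowest, 1 collagen gene was higher (COL5A1, 1.21) and none lower, beside 7.65% and 8.75% of all genes, with a median of 0.04, and COL4A1 was -0.69 and COL1A2 -0.01. At 24 °C, 2 were higher and none lower, beside 10.5% and 8.35%, with a median of 0.37, while SERPINH1 was -1.44.

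Of the 16 other measured genes of collagen modification, 1 was at least 2-fold higher after incubation (P3H4, 1.11) and none lower. Of all genes 8.48% and 2.53% were. At 16 °C 1 was higher and none lower, beside 7.65% and 8.75% of all genes. The higher one was P3H2, a prolyl hydroxylase (1.09), and the median was 0.04. The lysyl hydroxylase PLOD2 was -0.98 at 16 °C and -1.28 at 24 °C, and the prolyl isomerase FKBP10 -0.46 and -1.46. P4HA1, the catalytic subunit of collagen prolyl hydroxylase, was 0.26 and 0.35. SERPINH1 had the lowest log2 ratio of the 17 genes at 16 °C and the highest after incubation, the contrast on which it was chosen.

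The 6 measured genes of hypoblast and primitive streak also differed between these libraries. Their summed FPKM was 45.5 unstored, 104 after incubation, 104 at 4 °C, 41.4 at 16 °C and 77.7 at 24 °C, with no gene of them listed at 0. SERPINH1 and this sum were both highest after incubation and lowest at 16 °C. At 4 °C the sum was as high as after incubation while SERPINH1 was 47.0 against 114, and at 24 °C the sum was above and SERPINH1 below the unstored value. The part of these cells in the SERPINH1 levels was not tested.

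For comparison, 14 measured genes of integrins, Toll-like receptors and other proteins known as clients of HSP90B1 in mammals had a median of -0.45 at 16 °C. Of these, 1 was at least 2-fold higher, the integrin subunit ITGAV (FPKM 7.24 to 17.3), and 3 were lower, beside 7.65% and 8.75% of all genes. The growth factor IGF2 was the lowest, with FPKM 26.2 unstored and 7.46 at 16 °C (-1.69), and the integrin subunits ITGA6 and ITGB5 were -0.93 and -0.84.

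Over the 11 lists of ER folding, traffic and stress signalling, 171 genes besides the 4 were measured. At 16 °C against unstored, 11 (6.43%) were at least 2-fold higher and 5 (2.92%) lower, beside 7.65% and 8.75% of all genes, and their median was 0.06. For 24 °C the counts were 19 (11.1%) and 9 (5.26%), beside 10.5% and 8.35%, with a median of 0.05. No such gene was called at 4 °C, where 0.637% of all genes were higher and 0.0909% lower. After incubation 8 (4.68%) were higher and none lower, beside 8.48% and 2.53% of all genes. The share of higher genes was thus close to that of all genes at 16 and 24 °C, while the share of lower genes was below it. After incubation both shares were below those of all genes. HSPA5, chosen on this value, had the highest log2 ratio of the measured ER genes at 16 °C.

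Among the 11 higher genes at 16 °C were genes of ER-associated degradation, which removes proteins that fail to fold. The ubiquitin-conjugating enzyme UBE2J1 had FPKM 5.49 unstored, 7.91 at 4 °C, 18.1 at 16 °C (1.56) and 15.5 at 24 °C. NPLOC4, a cofactor of the extraction ATPase VCP, was 1.54 at 16 °C. UBXN6, another VCP cofactor, was lower, from FPKM 5.61 to 0.98 (-1.74). The list of 26 genes had 4 higher and 1 lower after 16 °C storage, beside 7.65% and 8.75% of all genes. After 24 °C storage 6 were higher and none lower, beside 10.5% and 8.35%.

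KDELR3, a receptor that returns ER residents from the Golgi, was 1.10 at 16 °C and 1.21 at 24 °C, and 1.08 after incubation. The coat components SEC31B (0.98) and SAR1B (0.82) and the ER exit gene TFG (0.67) followed in that list. Of its 17 genes 1 was at least 2-fold higher at 16 °C and none lower, beside 7.65% and 8.75% of all genes. Of 25 genes of protein entry into the ER none was at least 2-fold different at 16 or 24 °C. At 24 °C 10.5% of all genes were higher and 8.35% lower. SRP14, SRP72 and DDOST were -0.61, 0.59 and 0.52 at 16 °C. Of 10 genes of ER calcium, the channel ITPR3 was higher (1.12) and the calcium-binding protein RCN1 lower (-1.14) at 16 °C, with STIM1 and SELENON at -0.75 each.

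**Figure D5:**
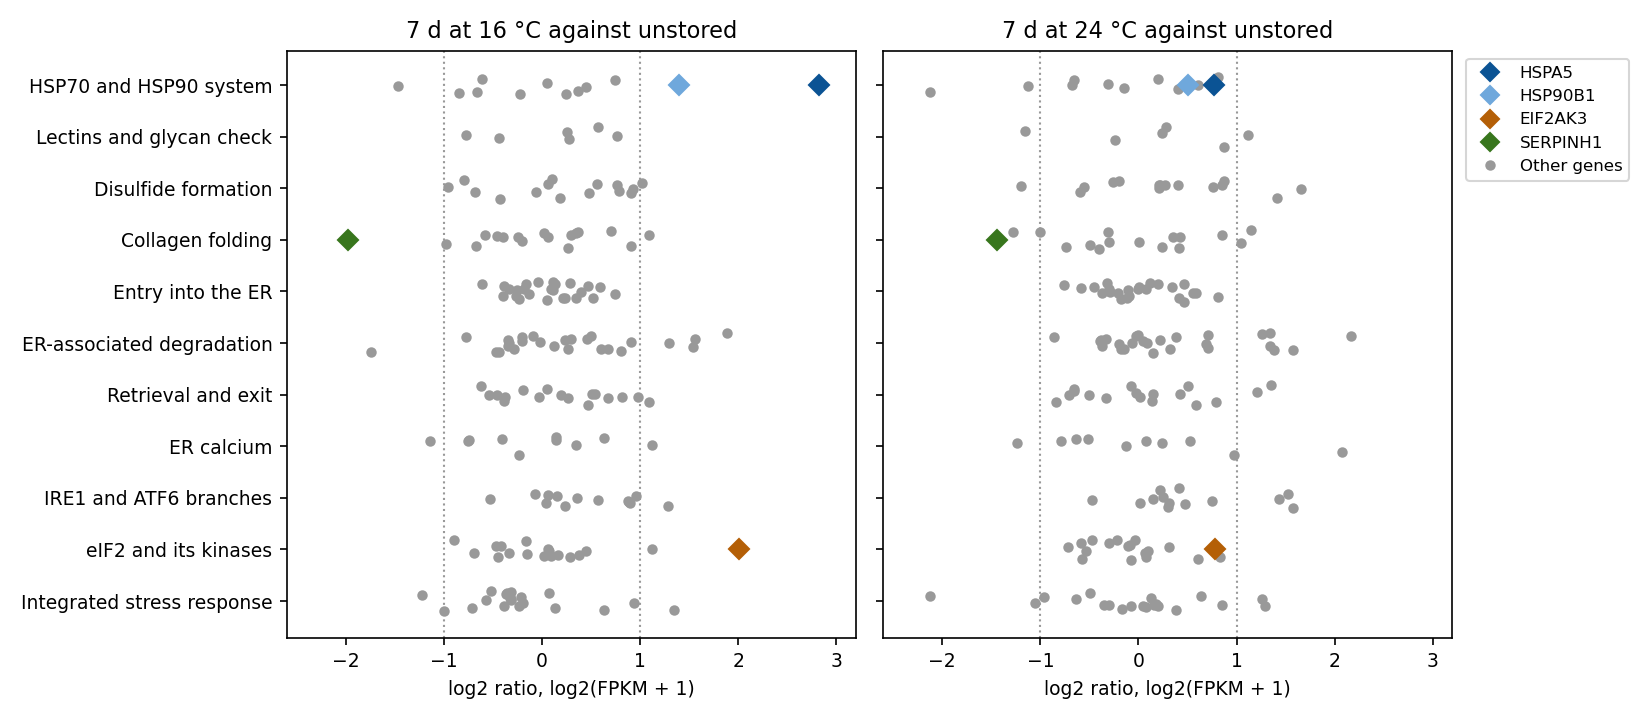
Log2 ratio to unstored, on the log2(FPKM + 1) scale, of the measured genes of the 11 ER lists at 16 °C (left) and 24 °C (right); diamonds are the 4 genes described here, grey points the other genes, and dotted lines mark 2-fold. At 16 °C HSPA5 (2.83) and EIF2AK3 (2.01), chosen on these values, lie to the right of every grey point in their own lists. SERPINH1 (-1.97) lies to the left of those in its list.

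The genes with the profile most like each of the 4 were found by the Euclidean distance over the 4 log2 ratios to unstored, among 5991 genes with a named symbol and FPKM of at least 5 in 1 library. For HSPA5 they were CREB5 (distance 0.33), PRICKLE2 (0.36), PTPN21 (0.56), JUN (0.77) and RIMBP2 (0.84). Of these JUN, a transcription factor of immediate early genes, had high levels, with FPKM 52.7 unstored, 47.4 after incubation, 55.4 at 4 °C, 549 at 16 °C and 64.2 at 24 °C, whereas CREB5 was listed at 0 in 3 libraries and had 5.10 at 16 °C. HSP90B1 ranked 56th and EIF2AK3 348th by distance from HSPA5, and SERPINH1 5965th. Seen from HSP90B1, HSPA5 ranked 2148th and EIF2AK3 4365th. Seen from EIF2AK3, HSPA5 ranked 233rd and HSP90B1 750th.

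For HSP90B1 the nearest included TOR4A (0.17), PCSK7 (0.33), PI4K2A (0.37) and UBXN2A (0.40), all with FPKM of at most 25.3. For EIF2AK3 they were RAB9B (0.60), PELI2 (0.73), USP25 (0.79), NME1 (0.97) and the phosphatase DUSP1 (1.03). For SERPINH1 they were NABP1 (0.80), FAM120C (0.83), WDYHV1 (0.91), ENPP3 (0.91) and GJA1 (1.08), and the gap junction gene GJA1 had FPKM 37.1 unstored, 93.5 after incubation and 7.09 at 16 °C. Distances were larger for EIF2AK3 and SERPINH1 than for HSP90B1.

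None of the 4 measured neighbours of these genes in the RefSeq annotation of the assembly GRCg7b was at least 2-fold different from unstored at 16 °C. Of all genes 7.65% were higher and 8.75% lower there, so few such calls would be met among 4 genes in any case. RABEPK, next to HSPA5, was 0.50, C12orf73, next to HSP90B1, was 0.00, RPIA, next to EIF2AK3, was -0.72, and RPS3, next to SERPINH1, was 0.51. EIF2AK3 overlaps LOC422929 and SERPINH1 overlaps a long noncoding RNA there, and reads of overlapping genes cannot be told apart without strand. LOC422929 had FPKM of at most 0.13 in the 5 libraries, and the noncoding RNA was not analysed here.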

How the data were processed

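Per the labels' protocols, total RNA was isolated with an RNeasy kit, poly(A)-selected and sequenced from TruSeq libraries as paired 101 bp reads. The authors deposited FPKM per RefSeq accession with 2 decimals, per the file headers, in 1 file per library. The submitters' processing notes name galGal4, TopHat2 2.0.8 and Cufflinks 2.0.2 without a role. The sources used here do not give the annotation release. Model-based estimates per isoform leave the depth unknown.

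Accessions without version were matched to symbols of GRCg7b, which covered 12609 of 32188 rows (39.2%), including 62 repeated accessions, and FPKM were summed per symbol to 10102 genes. Unmatched isoforms are left out: the table lists 2 transcripts for HSPA5 and EIF2AK3 and 3 for SERPINH1. None of the 4 accessions had the table's version. Filtering at FPKM 1 in at least 1 library kept 7733 genes. Ratios used Python 3.11.15 and pandas 2.3.3 and were tested on simulated data. The simulation used only genes with higher unstored FPKM than EIF2AK3, so EIF2AK3 and other low genes were not covered. The genes and the 16 gene lists were chosen with earlier results of these data known. Named genes are the 4 and any gene of the lists of the ER HSP70 and HSP90 system, eIF2, IRE1 and ATF6, and collagen folding. Up to 4 of each other list were added by size at 16 °C with FPKM of at least 5, and the 5 nearest profiles. Outside this rule, HSPA8, HSPA9, HSPA13, TRAP1 and HSF2 were named with earlier results of these data known. Older symbols were used for MESD and UFD1 alone. Some genes that this rule takes are not reported here.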

Additional observations from a re-analysis of the deposited data

Results flagged for a closer look

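EIF2AK3 and SERPINH1 went opposite ways relative to unstored at different storage temperatures, in each case beyond the middle 90% of all genes. EIF2AK3 was -0.52 at 4 °C and 2.01 at 16 °C, a log2 difference of 2.53. Its 4 °C value rests on FPKM of 3.69 and 5.73 and was -0.3 with a pseudocount of 5. SERPINH1 was 0.75 at 4 °C, -1.97 at 16 °C and -1.44 at 24 °C, so that 16 °C differed from 4 °C by -2.72 and 24 °C from 4 °C by -2.19. HSPB9, a small heat shock protein, was 1.77 at 16 °C and -1.62 at 24 °C, a difference of -3.39. EIF2AK3 was chosen on its 16 °C value and HSPB9 named by its size at 16 °C, so their differences reuse that choice. With 1 library per temperature none of these differences was tested, and each pair shares the unstored library.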

How the results depend on the processing

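Of 230 recomputed log2 ratios of the 4 genes, 221 stayed on the same side of 2-fold within a 1.5-fold move and no called value changed direction. The 9 that moved were all of EIF2AK3 under another pseudocount, among them incubated against unstored at -0.76 with a pseudocount of 5. Values near 0 changed sign with scaling, HSPA5 after incubation and at 4 °C and HSP90B1 at 4 °C. Median-ratio size factors and rescaling to 1000000 moved none. The highest row per symbol and curated rows alone (3 of the 4 genes) could move none, because each gene had 1 row. The 230 ratios include these values, which were fixed in advance.

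Shares of all genes depended more on these choices. With a pseudocount of 0.1, 14.2% of genes were higher and 4.70% lower after incubation, 2.26% and 0.767% at 4 °C, and 12.4% higher at 16 °C. With a pseudocount of 5 the shares were 2.08% and 0.883% after incubation, 0.078% and 0 at 4 °C, 2.08% and 4.06% at 16 °C, and 3.38% and 4.40% at 24 °C. Median-ratio size factors gave 0.403% and 0.169% at 4 °C. They moved the higher and lower genes after incubation from 653 and 195 to 496 and 286, and the higher part of called genes at 4 °C from 87.5% to 70.5% and at 24 °C from 55.6% to 48.9%. Rescaling gave 1% and 0.403% at 4 °C, 12.9% higher at 16 °C and 16.8% higher at 24 °C, with a higher part of 71.3%, 60.5% (46.6% as deposited) and 67.0%, and a mean FPKM of at least 5 gave 0.0184% lower at 4 °C.

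Of the other 171 ER genes, higher calls after incubation went from 8 to 4 with a pseudocount of 5 and to 4 with median-ratio size factors, and 1 was lower with a pseudocount of 0.1. At 16 °C the 11 higher became 17, 6 and 21 with pseudocounts of 0.1 and 5 and with rescaling, and the 5 lower became 9 and 2 with the pseudocounts. At 24 °C a pseudocount of 5 gave 11 higher and 4 lower. The cause was not tested. No paired analysis was possible because each condition has 1 library. Depth is unknown, which limits low values such as EIF2AK3.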

Other observations

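Other genes of the ER sensor branches and of folding had their largest differences from unstored in other libraries than HSPA5. CREB3L1, a membrane-bound transcription factor related to ATF6, was highest at 24 °C, with FPKM 0.77 unstored, 2.28 at 16 °C and 4.09 at 24 °C (1.52). NFYA, a subunit of the factor that binds ER stress elements together with ATF6, was highest after incubation, with FPKM 15.9 unstored and 43.8 (1.41), and BFAR, an ER membrane ubiquitin ligase, was also highest there, with 5.27 and 18.5 (1.64). DNAJC25 was lower at 24 °C, with FPKM 12.2 unstored and 5.05 (-1.12). Of the 171 other ER genes, 36 (21.1%) had their highest level at 16 °C and 46 (26.9%) at 24 °C. Beside this stand 16.8% and 22.5% of the 7733 genes. At 4 °C 41 (24.0%) were highest and after incubation 37 (21.6%), beside 24.8% and 27.2% of the 7733 genes. In the unstored library 11 (6.43%) were highest, beside 8.65%. The lowest level was at 16 °C for 38 (22.2%) of the 171, beside 27.3% of the 7733.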
